A study of Mus musculus with 30 samples.

Results

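The broad peaks of natural killer (NK) cell chromatin described here are the 655 of 38526 accessible regions (1.70%) that were at least 2500 bp wide in an ATAC-seq peak atlas of mouse splenic NK cells. They were chosen by width alone. Their widths ran between 2501 and 5682 bp, with a median of 2770 bp against 1066 bp over all peaks of the atlas. ATAC-seq uses a transposase to cut and tag open DNA, and the reads that fall in a peak measure how accessible that stretch is. Cells were either C57BL/6J wild type (WT) or knockout (KO) for the prostaglandin E2 (PGE2) receptors EP2 and EP4, genotype GzmbCre Ptger2-/- Ptger4fl/fl. The KO combines a germline Ptger2 deletion with a floxed Ptger4 allele cut by a Cre driven by the granzyme B promoter, and the WT cells carry no Cre, so receptor loss and Cre cannot be told apart. Before treatment, all cells had spent 5 days in culture in low-dose IL-2 plus IL15:IL15Ra. The 8 groups were, for each genotype, PGE2 at 100 ng/ml for 5 h, no treatment for 5 h, PGE2 with NK1.1 stimulation, and NK1.1 stimulation without PGE2, where NK1.1 stimulation filled the last 4 h after 1 h of treatment. WT PGE2 and KO untreated held 3 libraries and the other 6 groups held 4. Whether libraries of a group stem from different mice or dishes is not given, so all p-values rest on the spread among libraries, which may be technical.

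NK cells kill infected and transformed cells with perforin and granzymes and release chemokines and cytokines when activating receptors such as NK1.1 are engaged. PGE2 acts on lymphocytes through EP2 and EP4, receptors that couple to the stimulatory G protein and raise cyclic AMP, and it is known to dampen NK cell effector functions. Most accessible regions are short and mark single enhancers or start sites. Unusually wide stretches of open chromatin form over the promoters of heavily transcribed or cell-identity genes and over clusters of neighbouring regulatory elements.

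Promoter sequences differ in their content of the dinucleotide CpG, and the share of broad peaks that PGE2 lowered in resting cells is given for CpG-poor and CpG-rich start sites, so 3 windows of each kind are printed. Each window runs for 300 bases, 250 before the RefSeq start site and 50 from it on, in assembly GRCm38.p6, written 5′ to 3′ on the gene's own strand with every CpG in capitals. The first 3 belong to the chemokine Ccl3, the NK receptor gene Ncr1 (NKp46) and the Schlafen family gene Slfn2, with observed-over-expected CpG ratios of 0.175, 0 and 0.110.
Ccl3, chr11:83649329-83649628, minus strand: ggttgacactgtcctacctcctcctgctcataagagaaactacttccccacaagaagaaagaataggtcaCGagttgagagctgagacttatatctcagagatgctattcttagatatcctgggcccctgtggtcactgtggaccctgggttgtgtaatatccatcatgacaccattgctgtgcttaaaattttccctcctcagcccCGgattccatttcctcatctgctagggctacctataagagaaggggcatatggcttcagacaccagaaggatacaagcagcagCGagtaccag
Ncr1, chr7:4337474-4337773, plus strand: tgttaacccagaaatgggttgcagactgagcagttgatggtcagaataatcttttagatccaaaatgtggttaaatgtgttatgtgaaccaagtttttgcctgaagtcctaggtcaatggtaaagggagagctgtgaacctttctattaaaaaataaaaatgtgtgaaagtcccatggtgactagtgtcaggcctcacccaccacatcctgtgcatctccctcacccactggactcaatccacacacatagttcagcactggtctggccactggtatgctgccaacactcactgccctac
Slfn2, chr11:83064862-83065161, plus strand: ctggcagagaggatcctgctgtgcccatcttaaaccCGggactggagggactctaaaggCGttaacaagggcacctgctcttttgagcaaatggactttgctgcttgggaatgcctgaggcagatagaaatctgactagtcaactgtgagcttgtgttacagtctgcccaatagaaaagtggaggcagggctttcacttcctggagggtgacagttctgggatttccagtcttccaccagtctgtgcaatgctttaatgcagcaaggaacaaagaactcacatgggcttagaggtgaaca
The next 3 belong to the transcription factor gene Egr2, the gene of the TGF-β-responsive repressor Tgif2 and the adhesion molecule gene Icam1, with observed-over-expected CpG ratios of 0.997, 0.638 and 0.623.
Egr2, chr10:67537316-67537615, plus strand: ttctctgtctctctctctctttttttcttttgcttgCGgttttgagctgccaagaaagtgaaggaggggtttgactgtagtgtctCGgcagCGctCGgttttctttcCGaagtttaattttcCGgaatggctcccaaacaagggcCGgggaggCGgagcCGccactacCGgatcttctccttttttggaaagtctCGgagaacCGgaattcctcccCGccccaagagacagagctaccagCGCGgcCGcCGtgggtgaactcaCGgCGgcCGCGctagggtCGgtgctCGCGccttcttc
Tgif2, chr2:156839757-156840056, plus strand: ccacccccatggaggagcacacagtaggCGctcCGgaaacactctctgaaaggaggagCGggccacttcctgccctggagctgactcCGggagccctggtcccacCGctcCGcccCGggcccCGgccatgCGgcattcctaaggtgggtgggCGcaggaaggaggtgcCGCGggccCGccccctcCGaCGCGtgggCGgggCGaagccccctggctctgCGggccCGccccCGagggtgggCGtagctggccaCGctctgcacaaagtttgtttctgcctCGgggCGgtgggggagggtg
Icam1, chr9:21015690-21015989, plus strand: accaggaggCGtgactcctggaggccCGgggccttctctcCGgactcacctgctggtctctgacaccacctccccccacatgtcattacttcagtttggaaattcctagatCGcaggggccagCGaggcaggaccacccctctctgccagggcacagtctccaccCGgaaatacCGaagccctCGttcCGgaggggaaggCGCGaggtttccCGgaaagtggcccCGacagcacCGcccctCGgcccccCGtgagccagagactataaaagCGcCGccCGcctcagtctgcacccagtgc
The Ncr1 window holds no CpG, the Ccl3 window holds 3 and the Slfn2 window 2, while the Egr2, Tgif2 and Icam1 windows hold 24, 25 and 19.

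Libraries held between 8444350 and 20153816 reads in peaks, and values are normalised read counts, reads divided by a size factor of the library. All 12 NK marker genes had atlas peaks, as did 6 of 10 B cell, 6 of 12 T cell and 7 of 12 myeloid marker genes, while no peak analysed here was assigned to Cd79a, Cd79b, Ms4a1, Cd4, Cd8a or Lyz2. The highest peaks of 4 genes of these other lists, Cr2 (1045 counts per kb), Cd3d (838), Cd28 (718) and Spi1 (479), lay within the 374 to 1450 counts per kb of the highest peaks of the NK markers. The promoter of Ptger2, the gene of EP2, was itself a broad peak of 2705 bp at chr14:44988181-44990885. It held 131.4, 113.3 and 94.93 normalised counts in KO untreated cells, against 559.8, 632.7, 627.4 and 698.6 in WT untreated cells. No KO library reached any WT library, and over all conditions the KO libraries ran between 83.6 and 247 (median 181, n = 15) and the WT libraries between 560 and 1109 (median 633, n = 15). The log2 change of KO against WT was -2.47 ± 0.12 (SE) with an adjusted p of 8.35e-18 (limma, Benjamini-Hochberg over 38525 peaks). Ptger4, the gene of EP4, had no broad peak. Its exon peak at chr15:5241955-5243110 averaged 72.6 ± 10.7 in KO untreated and 490 ± 53.1 in WT untreated cells (SD, n = 3 and 4), and its promoter peak 1051 ± 90.7 in KO untreated and 1047 ± 112 in WT untreated cells.

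Broad peaks lay mostly over promoters. By the class given in the atlas, 501 of 655 (76.5%) were promoter peaks, against 31.3% of all peaks, and 67 (10.2%) were intronic, 36 (5.50%) exonic and 51 (7.79%) intergenic. A RefSeq start site fell inside 409 of the 655 (62.4%), against 23.5% of the other peaks. Start sites of at least 2 genes fell inside 90 of them (13.7%), against 3.92% of the other peaks. Of the 260 broad peaks with exactly 1 start site, 187 (71.9%) reached farther into the gene than away from it, with medians of 1805 bp downstream and 1064 bp upstream. The median broad peak held 1054 normalised counts over all libraries, against 169 for all peaks. Per kilobase of peak the medians were 364 for broad peaks and 160 for all peaks, and among promoters alone 390 and 344. Wider peaks thus collected more reads, and their values varied less: the median coefficient of variation between replicates was 7.25% for broad peaks and 11.4% for all peaks. All comparisons of call shares below are between peaks measured at these different depths, whose part in the shares was not tested.

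The 655 broad peaks were assigned to 634 genes of the 14886 in the atlas (4.26%), and 19 genes had at least 2 of them, among them Eomes, Jun, Runx1, Satb1, Smad3 and Ucp2. Genes of NK transcription factors carried one in 10 of 28 cases (35.7%): Eomes, Tox, Ets1, Runx1, Runx2, Tcf7, Lef1, Bach2, Foxo1 and Zbtb16. Among genes of receptor activation, the NFAT, NF-κB and AP-1 targets of lymphocyte signalling, 11 of 35 (31.4%) had one, including Egr2, Nr4a2, Nfkbia, Jun and Tnfrsf9. The share was 4 of 12 (33.3%) for NK markers, 5 of 20 for NK cytokines and chemokines and 4 of 17 (23.5%) for TGF-β genes. It was 4 of 22 (18.2%) for glycolysis and mTOR genes, 3 of 20 for housekeeping genes and 4 of 29 (13.8%) for NK receptors. For IL-2, IL-15 and STAT5 genes it was 3 of 22 (13.6%), and for cAMP and CREB genes 4 of 30 (13.3%). Migration genes had 3 of 23 (13.0%) and cytotoxic granule genes 2 of 18 (11.1%). Of the markers of other cell types, 1 of 7 myeloid genes (Itgax) and none of 6 B cell and 6 T cell genes with a peak had a broad one. These shares per gene do not allow for the number of peaks of a gene, whose part was not tested. NK transcription factor genes had 12 broad peaks among 360, and receptor activation genes 12 among 245. The cAMP and CREB genes had 4 among 212, and housekeeping genes 3 among 51, against 655 among 38526 (1.70%) over all. Gzmb and Ifng had peaks in the atlas but none of this width.

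With all libraries in the fit, PGE2 in resting WT cells lowered accessibility at more broad peaks than it raised. Of 655 peaks, 37 were higher and 58 were lower in WT PGE2 than in WT untreated cells at an adjusted p under 0.05 (limma), while over all peaks 10.9% were higher and 4.03% were lower. The counts were 5.65% and 8.85% of the broad peaks. The median log2 change of the 655 was -0.05, against -0.01 over all peaks tested. In bulk samples such as these, fewer cells of a type and less accessibility per cell cannot be told apart. The count of lower peaks depended on single libraries: it was 30 without WT PGE2 replicate 3, 37 without WT PGE2 replicate 4, 32 without WT untreated replicate 1 and 34 without WT untreated replicate 2. The count of higher peaks ran between 26, without WT PGE2 replicate 2, and 35, without WT PGE2 replicate 4. In that last fit the excess of lower peaks was thus small, with 37 lower and 35 higher. By class, 17 of 67 intronic broad peaks were higher and 3 lower, whereas 13 of 501 promoter peaks (2.59%) were higher and 36 (7.19%) lower, and 1 of 51 intergenic peaks was higher and 13 lower. Of 36 exonic peaks, 6 were higher and 6 lower. Among peaks under 2500 bp, 2.18% of promoter peaks were higher and 2.29% lower, and 14.8% and 4.68% of those outside promoters. Across width classes the share of higher peaks was 13.4% from 500 bp, 10.4% from 1000 bp, 7.5% from 1500 bp, 4.7% from 2000 bp and 6.17% from 2500 bp up to the next bound, and 4.32% at 3000 bp and wider. The share of lower peaks over the same classes was 3.14%, 4.78%, 4.55%, 4.59%, 8.3% and 10.3%. Of the 914 peaks under 500 bp that were tested, 8.86% were higher and 0.985% lower.

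**Figure D1:**
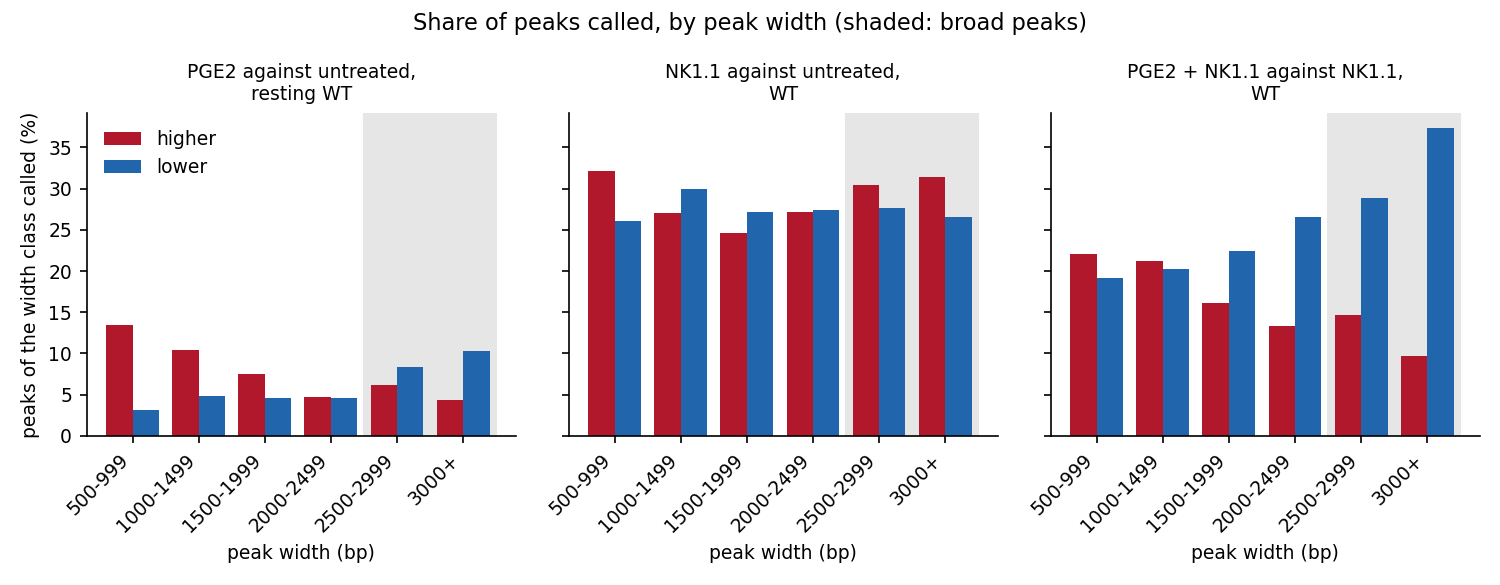
Share of peaks called (y axis, %) in 6 classes of peak width from 500 bp (x axis, bp) for PGE2 against untreated in resting WT cells, NK1.1 against untreated in WT cells and PGE2 + NK1.1 against NK1.1 in WT cells, with higher calls in red, lower calls in blue and the broad classes shaded. In resting cells the lower calls overtake the higher ones in the shaded classes, with 10.3% lower and 4.32% higher at 3000 bp and wider, while the stimulation panel keeps similar shares in both directions.

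The strongest loss in resting cells was at Ccl3, which encodes an inflammatory chemokine. Its promoter peak of 3887 bp at chr11:83646107-83649993, which includes the CpG-poor window printed above, held 610.6, 526.4 and 533.5 normalised counts in WT PGE2 and 1219, 1366, 1216 and 1107 in WT untreated cells. All 3 treated libraries lay below all 4 untreated ones, at 0.454 of their level (log2 change -1.14 ± 0.13, adjusted p = 3.44e-08 by limma). The neighbouring Ccl4 peak of 4075 bp, also of an inflammatory chemokine gene, held 187.9, 165.4 and 189.7 in WT PGE2 and 226.1, 336.3, 290.6 and 342.8 in WT untreated cells, again without overlap (-0.70 ± 0.18, adjusted p = 0.00528). Klra10, one of the Ly49 family of NK receptors for MHC class I, had an intergenic peak with 278.7, 256.8 and 286.3 in WT PGE2 and 464.0, 609.3, 525.3 and 576.8 in WT untreated cells. This was a log2 change of -0.98 ± 0.13 (adjusted p = 3.54e-07, limma). The exonic peak of Ucp2, a mitochondrial carrier, was 4510 bp wide and held 946.6, 1190 and 1245 in WT PGE2 against 1889, 2095, 2007 and 2332 in WT untreated cells, a log2 change of -0.89 ± 0.11 (adjusted p = 1.32e-07, limma). In both the Klra10 and the Ucp2 peak the highest treated library stayed below the lowest untreated one. A second broad peak of Ucp2, over its promoter, was not called (-0.18 ± 0.07, adjusted p = 0.0952).

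An intergenic peak assigned to Asb5 held 338.2, 297.9 and 379.3 in WT PGE2 and 598.3, 563.7, 533.1 and 574.4 in WT untreated cells, without overlap (log2 change -0.75 ± 0.13, adjusted p = 6.48e-05, limma). The Ncr1 promoter peak (chr7:4337228-4340115), whose gene encodes the NK receptor NKp46, held 1324, 1140 and 1379 in WT PGE2 and 1867, 2053, 1766 and 1916 in WT untreated cells, with no overlap and a log2 change of -0.57 ± 0.10 (adjusted p = 4.44e-05, limma). The Asb5 and Ncr1 peaks were also called lower in KO untreated cells against the same WT untreated libraries, as given below. An intronic peak of Cd244a, the gene of the receptor 2B4, averaged 1133 ± 53.2 in WT PGE2 and 1395 ± 51.4 in WT untreated cells (SD, n = 3 and 4; log2 change -0.30 ± 0.07, adjusted p = 0.00376). The promoter peak of Ms4a4b, a membrane protein gene of lymphocytes, averaged 517 ± 32.0 in WT PGE2 and 816 ± 25.3 in WT untreated cells, and that of its neighbour Ms4a6c 196 ± 5.63 in WT PGE2 and 313 ± 30.8 in WT untreated cells. The promoter peak of Itgax, the gene of CD11c, averaged 579 ± 68.7 in WT PGE2 and 735 ± 35.3 in WT untreated cells (log2 change -0.35 ± 0.08, adjusted p = 0.000875). Itgax is on the list of myeloid markers and is also known from NK cells. Of the other myeloid markers, Csf1r, Cd14, Adgre1, Cebpa, Spi1 and Fcgr1 had peaks, the highest at Spi1 with 479 normalised counts per kb, and the part of other cells in the Itgax values was not tested. An intergenic peak assigned to Sesn1, a stress-response gene, averaged 128 ± 29.6 in WT PGE2 and 218 ± 44.2 in WT untreated cells, and its call was lost without WT PGE2 replicate 3 (log2 change -0.58, adjusted p = 0.118). Reads of the Ccl, Klra, Ms4a and Serpinb9 families may be shared among similar genes, so which family member a peak reports is uncertain.

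Broad peaks that gained accessibility with PGE2 at rest were mostly in introns and exons. An exonic peak of Dip2b (2733 bp) held 262.0, 317.1 and 344.8 in WT PGE2 and 168.0, 132.2, 143.3 and 106.3 in WT untreated cells, 2.25 times as much (log2 change 1.17 ± 0.26, adjusted p = 0.000995, limma). The promoter peak of Thbd, the gene of thrombomodulin, held 510.4, 542.0 and 518.5 in WT PGE2 and 316.4, 259.5, 329.9 and 302.1 in WT untreated cells, 1.74 times as much (adjusted p = 5.2e-07, limma). At both peaks every treated library exceeded every untreated one. Serpinb9 encodes the inhibitor of granzyme B. Its exonic peak of 2541 bp held 131.5, 147.1 and 164.8 in WT PGE2 and 87.15, 96.21, 75.60 and 114.6 in WT untreated cells, again without overlap (log2 change 0.67 ± 0.16, adjusted p = 0.00266, limma). The promoter peak of Rbks, a ribokinase gene, averaged 1238 ± 174 in WT PGE2 and 792 ± 58.1 in WT untreated cells, and an intronic peak of Edem3, of protein quality control in the endoplasmic reticulum, 311 ± 37.7 in WT PGE2 and 167 ± 13.1 in WT untreated cells (SD, n = 3 and 4). Intronic peaks of Ttll5, Gfod1 and Agap1 were higher in WT PGE2 than in WT untreated cells by 0.59, 0.58 and 0.53 on the log2 scale. The exonic peak of Tnfrsf9, the gene of the costimulatory receptor 4-1BB, was called higher (log2 change 0.56 ± 0.17, adjusted p = 0.0192), but the call was lost without WT PGE2 replicate 3 (0.37, adjusted p = 0.231), without WT untreated replicate 3 (0.50, adjusted p = 0.0651), by edgeR (0.59, adjusted p = 0.0985) and after quantile normalisation (0.39, adjusted p = 0.123).

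NK1.1 stimulation of WT cells gave its largest gains among the broad peaks at chemokine genes and at genes of lymphocyte activation. Of 655 peaks, 201 were higher and 179 lower in WT NK1.1 than in WT untreated cells (limma), and over all peaks 56.3% were called, 28.9% higher and 27.4% lower, so the broad peaks' shares of 30.7% and 27.3% lay near the background. Xcl1 encodes the chemokine that attracts XCR1-bearing dendritic cells. Its exonic peak of 3147 bp at chr1:164928927-164932073 held 3597, 2862, 1979 and 2041 normalised counts in WT NK1.1 and 30.62, 51.51, 32.40 and 57.32 in WT untreated cells, 59.9 times as much (log2 change 5.90 ± 0.28, adjusted p = 1.27e-19, limma). The Ccl1 peak of 4200 bp at chr11:82173321-82177520, of a CCR8 ligand, held 4374, 3044, 2135 and 2069 in WT NK1.1 and 69.09, 74.83, 107.0 and 58.52 in WT untreated cells (36.2 times, adjusted p = 4.56e-21, limma). The Ccl4 peak held 4885, 3711, 3286 and 3186 in WT NK1.1 and 226.1, 336.3, 290.6 and 342.8 in WT untreated cells (12.5 times). At Xcl1, Ccl1 and Ccl4 no stimulated library overlapped an untreated one, and within the stimulated group replicates 1 and 2 were higher than replicates 3 and 4. Ccl3 was already accessible at rest and reached 4922, 4018, 3820 and 3930 in WT NK1.1, against 1219, 1366, 1216 and 1107 in WT untreated cells, a ratio of 3.39.

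Of the 655 broad peaks, 33 were called higher in WT NK1.1 than in WT untreated cells with a log2 change of at least 1. The exonic peak of Tagap, a GTPase-activating protein of lymphocyte activation, held 1838, 1265, 1467 and 1336 in WT NK1.1 and 35.33, 44.70, 47.13 and 58.52 in WT untreated cells, 31.3 times as much (adjusted p = 1.27e-22, limma). That of Tnfrsf9 held 845.0, 634.3, 737.2 and 747.0 in WT NK1.1 and 32.98, 36.93, 28.47 and 33.44 in WT untreated cells, 21.8 times as much (adjusted p = 6.7e-23, limma). Both were among the least accessible broad peaks at rest and separated without overlap. The promoter peak of Tgif2 (chr2:156839526-156842348) averaged 1562 ± 106 in WT NK1.1 and 263 ± 29.6 in WT untreated cells, 5.94 times as much, and an intergenic peak assigned to Irf2bp1, a corepressor gene, 1936 ± 108 in WT NK1.1 and 367 ± 31.5 in WT untreated cells, 5.28 times as much. Serpinb9 averaged 467 ± 45.7 in WT NK1.1 and 93.4 ± 16.5 in WT untreated cells, and the intergenic peak assigned to Prf1, the perforin gene, 709 ± 60.4 in WT NK1.1 and 319 ± 19.0 in WT untreated cells (SD, n = 4 each). Peaks that closed included the promoters of Ms4a4b, with 277 ± 32.1 in WT NK1.1 and 816 ± 25.3 in WT untreated cells (log2 change -1.56 ± 0.12, adjusted p = 1.2e-13), and of Slfn2, a gene that maintains quiescence in mouse T cells. The Slfn2 peak at chr11:83064793-83067723 held 1041, 951.4, 795.8 and 820.8 in WT NK1.1 and 2593, 2458, 2349 and 2355 in WT untreated cells, without overlap (log2 change -1.44 ± 0.12, adjusted p = 4.92e-13, limma). Klra10, Asb5, Ms4a6c, Gm16534, the Hedgehog factor gene Gli1 and the macroH2A gene H2afy fell as well, by 1.18, 1.21, 1.35, 1.07, 1.09 and 1.05 on the log2 scale.

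The same stimulation in KO cells, which share no library with the WT groups, raised 217 and lowered 155 of the 655 broad peaks in KO NK1.1 against KO untreated cells, where 54.5% of all peaks were called, 28.1% higher and 26.4% lower. Of these, 187 of the 217 higher peaks (86.2%) were among the 201 higher ones in WT cells (93.0%), near the 90.5% and 88.0% over all peaks. Of the 155 lower peaks, 144 (92.9%) were among the 179 lower ones in WT cells (80.4%), with 83.0% and 79.9% over all peaks. Xcl1 averaged 2846 ± 1125 in KO NK1.1 and 50.2 ± 19.1 in KO untreated cells (SD, n = 4 and 3), 55.0 times as much. The difference between the stimulation effects of the genotypes was called at 0 of 655 broad peaks by limma (0.00779% of all peaks, 0.00519% higher and 0.0026% lower), and 13 had an unadjusted p under 0.05. By edgeR and by DESeq2 the count was also 0. The differences, WT minus KO, ran between -0.41 at Asb5 and 0.44 at Tagap on the log2 scale.

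When PGE2 preceded NK1.1 stimulation in WT cells, 205 of the broad peaks were lower and 87 higher than after NK1.1 alone (limma), and over all peaks 20.4% were lower and 20.2% higher. The broad peaks' shares were 31.3% lower and 13.3% higher, with a median log2 change of -0.08 against -0.01 over all peaks tested. At 3000 bp and wider 69 of 185 (37.3%) were lower and 18 (9.73%) higher. Promoter peaks gave 151 of 501 lower and 57 higher, while peaks of the same class under 2500 bp gave 19.5% lower and 6.91% higher. Exonic peaks gave 17 of 36 lower and 4 higher, and intronic ones 20 of 67 lower and 18 higher. Between libraries, 303 of the 655 peaks (46.3%) did not overlap between the groups, against 39.5% of all peaks.

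The largest falls were at Ccl1, Xcl1 and Tagap. Ccl1 held 253.5, 254.3, 148.8 and 180.4 normalised counts in WT PGE2 + NK1.1 and 4374, 3044, 2135 and 2069 in WT NK1.1 cells, 0.0740 of the level without PGE2 (log2 change -3.76 ± 0.22, adjusted p = 1.01e-15, limma). Xcl1 held 661.1, 739.6, 419.8 and 410.3 in WT PGE2 + NK1.1 and 3597, 2862, 1979 and 2041 in WT NK1.1 cells, 0.212 of that level (-2.23 ± 0.28, adjusted p = 4.79e-08, limma). Neither gene's groups overlapped, and both peaks remained more accessible in WT PGE2 + NK1.1 than in any resting WT library. Ccl4 averaged 1091 ± 271 in WT PGE2 + NK1.1 and 3767 ± 779 in WT NK1.1 cells, Ccl3 1367 ± 113 in WT PGE2 + NK1.1 and 4173 ± 506 in WT NK1.1 cells, and Ccl9 355 ± 21.1 in WT PGE2 + NK1.1 and 841 ± 154 in WT NK1.1 cells (SD, n = 4 each). Tagap held 402.6, 360.3, 306.7 and 278.5 in WT PGE2 + NK1.1 against 1838, 1265, 1467 and 1336 in WT NK1.1 cells, and the ratio was 0.229 (adjusted p = 1.07e-11, limma). Prf1 held 312.2, 352.5, 347.5 and 331.8 in WT PGE2 + NK1.1 and 784.3, 719.7, 691.2 and 639.4 in WT NK1.1 cells (log2 change -1.07 ± 0.10, adjusted p = 1.72e-10, limma). With PGE2 the Prf1 values lay in the range of the WT untreated libraries, which held 296.0, 314.9, 324.0 and 341.6, except for the 2 highest. Icam1, whose product binds the integrin LFA-1, held 654.2, 626.9, 506.5 and 573.0 in WT PGE2 + NK1.1 and 1308, 1155, 1137 and 1161 in WT NK1.1 cells, again without overlap (0.495 of the level, adjusted p = 4.55e-13, limma). Tgif2 averaged 521 ± 50.4 in WT PGE2 + NK1.1 and 1562 ± 106 in WT NK1.1, and Egr2 2992 ± 58.0 in WT PGE2 + NK1.1 and 5328 ± 354 in WT NK1.1 cells.

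Among the 87 broad peaks that were higher with PGE2 under stimulation, several were peaks that stimulation alone had closed. Both comparisons use the WT NK1.1 libraries, so these directions are not independent. Counts from comparisons without shared libraries are given below. The Slfn2 peak held 1577, 1640, 1459 and 1447 in WT PGE2 + NK1.1 and 1041, 951.4, 795.8 and 820.8 in WT NK1.1 cells, with no overlap (log2 change 0.77 ± 0.12, adjusted p = 2.02e-06, limma). An intronic peak of 1700030F04Rik held 1171, 1003, 935.5 and 948.7 in WT PGE2 + NK1.1 and 536.3, 473.0, 465.3 and 478.1 in WT NK1.1 cells, 2.07 times as much (adjusted p = 1.87e-11, limma). The intronic peak of Arid5b, a DNA-binding chromatin factor gene that was not called with stimulation alone, averaged 1466 ± 142 in WT PGE2 + NK1.1 and 825 ± 56.4 in WT NK1.1 cells (SD, n = 4 each). The promoter of Cxcr4, the receptor of CXCL12, averaged 1299 ± 119 in WT PGE2 + NK1.1 and 785 ± 29.3 in WT NK1.1 cells (log2 change 0.72 ± 0.11, adjusted p = 1.87e-06). Wwp2, P2ry10, Ttll5, Gm16534 and Ccm2 were higher by 0.85, 0.87, 0.84, 0.82 and 0.82 on the log2 scale.

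**Figure D2:**
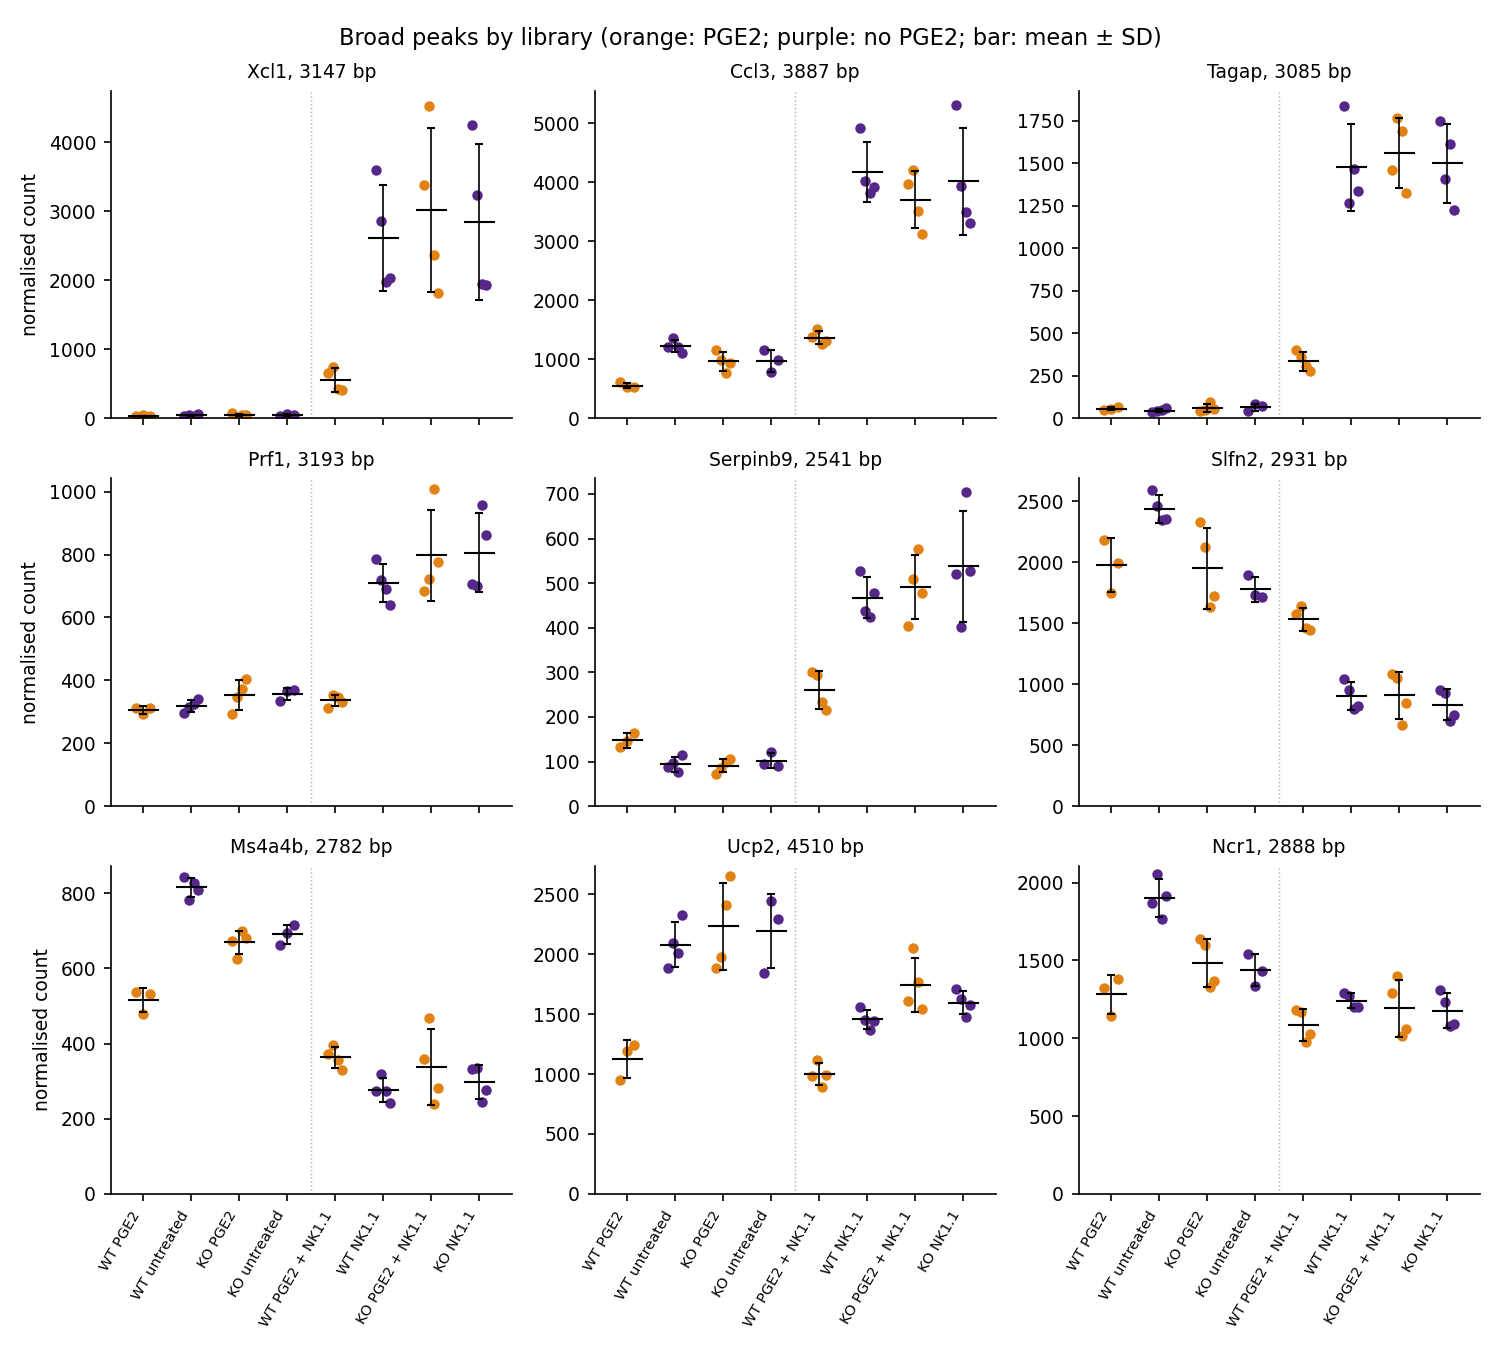
Normalised count (y axis) of 9 broad peaks in each of the 30 libraries, by group (x axis), with PGE2 groups in orange, groups without PGE2 in purple and black bars for the mean ± SD. Xcl1, Ccl3, Tagap and Prf1 are high in the stimulated groups except WT PGE2 + NK1.1, where Xcl1 lies between 410.3 and 739.6, while Slfn2, Ms4a4b, Ucp2 and Ncr1 are highest in resting groups.

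The broad peaks lowered by PGE2 under stimulation were compared with those that stimulation raised in KO cells, since the 2 comparisons share no library. Of the 217 peaks raised by NK1.1 in KO cells, 160 (73.7%) were among the 205 lowered by PGE2 in stimulated WT cells (78.0%), and over all peaks the corresponding shares were 56.8% and 78.3%. Of the 155 lowered by NK1.1 in KO cells, 68 (43.9%) were among the 87 raised by PGE2 (78.2%), with 46.5% and 61.0% over all peaks. Between rest and stimulation, 32 of the 58 broad peaks lowered by PGE2 at rest (55.2%) were among the 205 lowered under stimulation (15.6%), with 35.4% and 7.0% over all peaks. Of the 37 raised at rest, 15 (40.5%) were among the 87 raised under stimulation (17.2%), with 50.9% and 27.4% over all peaks. Comparing stimulated and resting cells that had both received PGE2, 70 broad peaks were higher and 46 lower in WT PGE2 + NK1.1 than in WT PGE2 cells (limma), with 12.7% and 3.8% over all peaks. The higher calls were 60.3% of the called broad peaks, against 73.8% after quantile normalisation, and without WT PGE2 replicate 3 the count of lower peaks was 23.

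**Figure D3:**
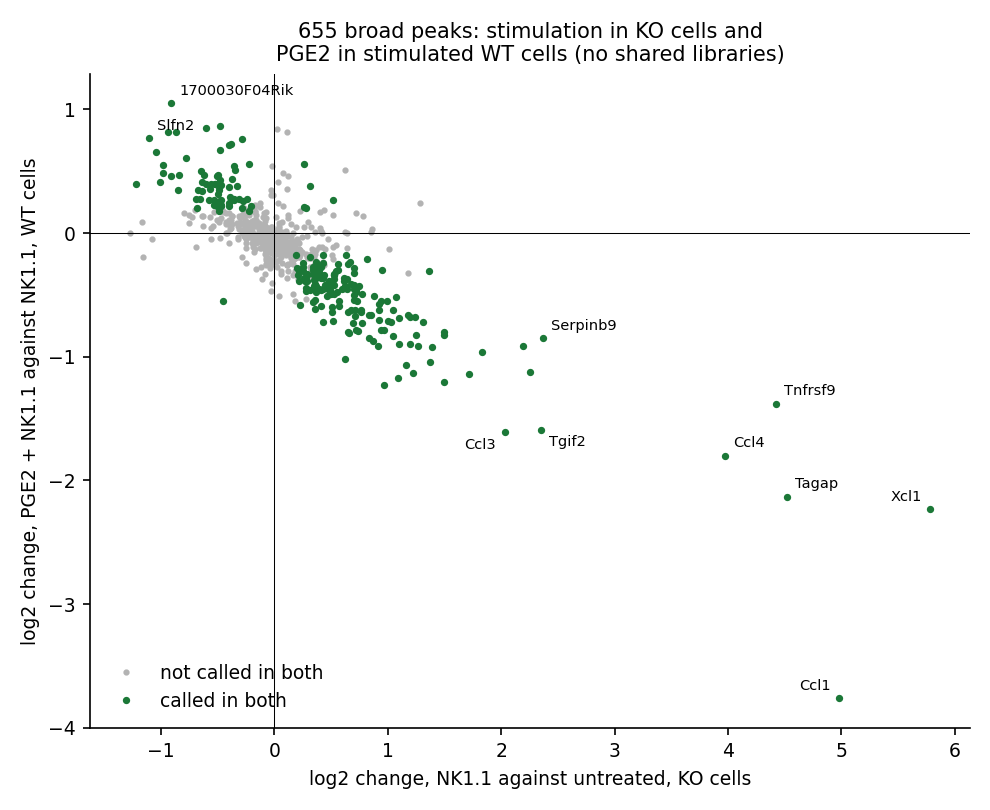
Log2 change of the 655 broad peaks with NK1.1 against untreated in KO cells (x axis) and with PGE2 + NK1.1 against NK1.1 in WT cells (y axis), with peaks called in both comparisons in green. Most green points lie in the lower right (160 peaks) and upper left (68 peaks) quadrants, and Xcl1, Ccl1 and Tagap stand farthest to the lower right.

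In KO cells no broad peak passed the test for PGE2. The counts were 0 of 655 in KO PGE2 against KO untreated cells (0% of all peaks) and 0 of 655 in KO PGE2 + NK1.1 against KO NK1.1 cells (0.0026% of all peaks) by limma, and also 0 by edgeR and by DESeq2. At an unadjusted p under 0.05 the limma counts were 18 and 14. Log2 changes at rest ran between -0.46 at 4930459C07Rik and 0.45 at Tnfrsf9, and under stimulation between -0.32 at Tent4b and 0.27 at Ccm2. Ccl3 averaged 968 ± 163 in KO PGE2 and 977 ± 184 in KO untreated cells (SD, n = 4 and 3), and Xcl1 3023 ± 1192 in KO PGE2 + NK1.1 and 2846 ± 1125 in KO NK1.1 cells (SD, n = 4 each). The difference itself, the PGE2 effect in WT minus that in KO cells, was called at rest for 5 broad peaks in the higher and 19 in the lower direction, with 6.18% of all peaks called, 4.94% higher and 1.24% lower. Under stimulation it was called for 40 in the higher and 123 in the lower direction, with 10.2% and 9.8% over all peaks. At rest it was -1.13 ± 0.19 at Ccl3 (adjusted p = 9.75e-05, limma), -0.61 ± 0.14 at Ncr1 (adjusted p = 0.00405) and 0.77 ± 0.15 at Thbd (adjusted p = 0.000789). Under stimulation it was -3.73 ± 0.31 at Ccl1 (adjusted p = 1.6e-10), -2.32 ± 0.40 at Xcl1 (adjusted p = 4.95e-05) and 0.65 ± 0.17 at Slfn2 (adjusted p = 0.00458). The count in the lower direction at rest was 12 without WT PGE2 replicate 3, WT PGE2 replicate 4, WT untreated replicate 1 or KO untreated replicate 3. The count in the higher direction was 3 without WT PGE2 replicate 4, KO PGE2 replicate 1 or KO untreated replicate 4, and 9 without KO untreated replicate 2.

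**Figure D4:**
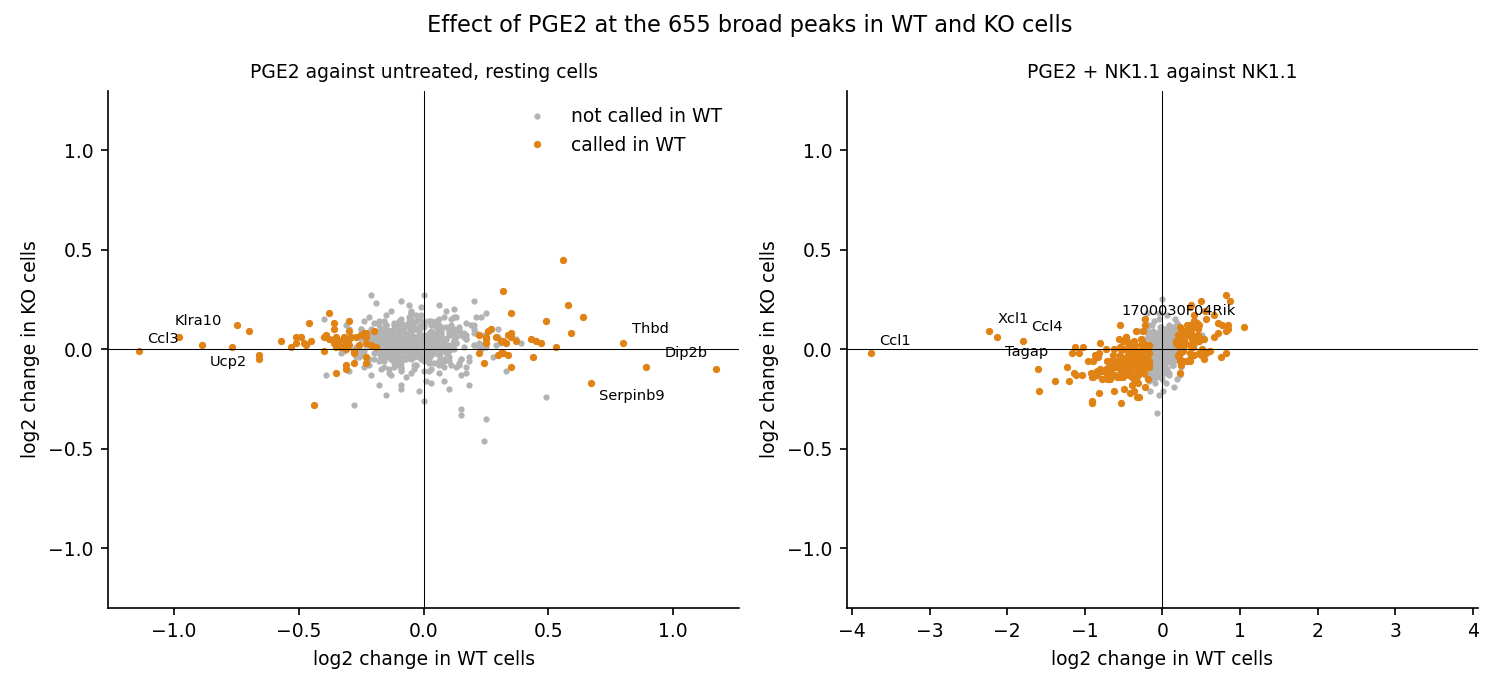
Log2 change of the 655 broad peaks with PGE2 in WT cells (x axis) and in KO cells (y axis), at rest on the left and under NK1.1 stimulation on the right, with peaks called in WT cells in orange. The x axes of the panels differ in scale, the KO values stay between -0.46 and 0.45, and Ccl1 reaches -3.76 in stimulated WT cells.

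Between untreated resting cells of the genotypes, 1 broad peak was higher and 9 were lower in KO than in WT cells, while 1.73% of all peaks were called, 1.09% higher and 0.636% lower. The median log2 change of the 655 broad peaks was -0.097, against 0.004 over all peaks. After quantile normalisation these medians were -0.005 and 0.000, so the shift of the broad peaks depended on the scaling. Its part in the calls was not tested. The lower ones were Ptger2, given above, and peaks of Asb5, Arid5b, Ncr1, Satb1, Il18rap, Iqgap2, Rnase4 and Smad3, and the higher one was the promoter of Chst2, a sulfotransferase gene. Ncr1 held 1541, 1336 and 1433 in KO untreated and 1867, 2053, 1766 and 1916 in WT untreated cells (log2 change -0.40 ± 0.10, adjusted p = 0.0247, limma). The KO libraries lay below the WT ones, but the call was lost without WT untreated replicate 1, WT untreated replicate 2, KO untreated replicate 3 or KO untreated replicate 4, with adjusted p values of 0.0554, 0.0905, 0.163 and 0.0732. Asb5 held 293.1, 413.6 and 413.9 in KO untreated and 598.3, 563.7, 533.1 and 574.4 in WT untreated cells (-0.62 ± 0.13, adjusted p = 0.00852), and 0.0745 was its adjusted p without KO untreated replicate 2. Ncr1 and Asb5 were also the peaks given above as lower with PGE2 at rest. Both comparisons rest on the same WT untreated libraries, whose part in the shared direction was not tested. Arid5b averaged 660 ± 46.7 in KO untreated and 918 ± 98.8 in WT untreated cells (adjusted p = 0.0154), and 0.0805 without WT untreated replicate 1 and 0.0947 without KO untreated replicate 3. The calls of Satb1, Il18rap, Iqgap2, Rnase4 and Chst2, with adjusted p values of 0.0455, 0.0437, 0.0239, 0.0425 and 0.041, were each lost without WT untreated replicate 1, WT untreated replicate 2 or KO untreated replicate 3 (adjusted p between 0.0671 and 0.201). Those of Satb1, Rnase4 and Chst2 were also lost without WT untreated replicate 4, those of Satb1, Iqgap2, Rnase4 and Chst2 without KO untreated replicate 4, those of Il18rap and Rnase4 without KO untreated replicate 2, and that of Il18rap without WT untreated replicate 3 (adjusted p between 0.0525 and 0.286). The Smad3 call (-0.32, adjusted p = 0.0447) was not examined in this way. The count of lower peaks was 2 without WT untreated replicate 1, 3 without WT untreated replicate 2, 2 without KO untreated replicate 3, 5 without KO untreated replicate 4 and 17 without KO untreated replicate 2. None was higher without WT untreated replicate 1, 2 or 4 or KO untreated replicate 3 or 4, and 4 were without KO untreated replicate 2. After quantile normalisation 0 were higher and 4 lower. Rnase4 lies on chromosome 14, as does the targeted Ptger2.

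Read by role, the broad peaks of effector genes were higher with stimulation and lower with PGE2 under it. Here and in the lists below, both comparisons in WT cells use the WT NK1.1 libraries, with opposite sign. Opposite directions in them are therefore not independent. Stimulation of KO cells shares no library with the PGE2 comparison, and there 5 cytokine and chemokine peaks and 2 granule peaks were higher and none lower. Over all peaks 28.9% were called higher and 27.4% lower with stimulation in WT cells. The shares were 20.2% and 20.4% with PGE2 under stimulation and 10.9% and 4.03% with PGE2 at rest. All 5 peaks of NK cytokines and chemokines (Xcl1, Ccl1, Ccl3, Ccl4, Ccl9) were higher in WT NK1.1 than in WT untreated cells, with a median log2 change of 3.65, where the median of all peaks was -0.02. All 5 were lower in WT PGE2 + NK1.1 than in WT NK1.1 cells, with a median of -1.80, where the median of all peaks was -0.01, and 3 were lower in WT PGE2 than in WT untreated cells, with a median of -0.44. The Ccl9 call at rest (log2 change -0.44, adjusted p = 0.0208) was lost without WT PGE2 replicate 3 (-0.26, adjusted p = 0.295) and without WT untreated replicate 2 (-0.38, adjusted p = 0.0795). Both cytotoxic granule peaks, Prf1 and Serpinb9, were higher with stimulation and lower with PGE2 under it, and Serpinb9 was higher with PGE2 at rest.

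Of the 12 peaks of receptor activation genes, 6 were higher and none lower with stimulation, and 5 were lower and none higher with PGE2 under stimulation. With PGE2 at rest 2 were higher and 1 lower. Over all peaks 28.9% were higher with stimulation, 20.4% lower with PGE2 under it, and 10.9% higher and 4.03% lower with PGE2 at rest. The intronic peak of the orphan nuclear receptor gene Nr4a2 averaged 1817 ± 70.5 in WT PGE2 + NK1.1 and 3157 ± 179 in WT NK1.1 cells, and 1255 ± 60.1 in WT PGE2 and 1077 ± 27.3 in WT untreated cells. Its call at rest (log2 change 0.22, adjusted p = 0.0488) was lost by edgeR (0.21, adjusted p = 0.0627) and without any library of these groups other than WT PGE2 replicate 4 (adjusted p between 0.0628 and 0.155). That of the Nfatc2 promoter (-0.19, adjusted p = 0.0421) was lost without WT PGE2 replicate 2 or 4 or WT untreated replicate 1, 2 or 4 (adjusted p between 0.066 and 0.17). An intergenic peak assigned to Nfkbia, the inhibitor of NF-κB, was higher with stimulation (log2 change 0.75 ± 0.10) and lower with PGE2 under stimulation (-0.55 ± 0.10, adjusted p = 1.25e-05, limma). The promoter peak of Jun was called in neither comparison (0.16 ± 0.07 with stimulation, adjusted p = 0.0569, and -0.13 ± 0.07 with PGE2 under stimulation, adjusted p = 0.157). All 4 peaks of cAMP and CREB genes (Atf3, Nr4a2, Adora2a, Gnas) were lower with PGE2 under stimulation. With stimulation 3 were higher, and 1, Nr4a2, was higher with PGE2 at rest. The promoter of Adora2a, an adenosine receptor gene that couples to cAMP, averaged 1977 ± 128 in WT PGE2 + NK1.1 and 3248 ± 241 in WT NK1.1 cells (SD, n = 4 each). The Gnas call (-0.24, adjusted p = 0.0339) was lost without WT PGE2 + NK1.1 replicate 1, 2 or 4 or WT NK1.1 replicate 1, 3 or 4, with adjusted p values between 0.0546 and 0.104.

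Of 12 broad peaks of NK transcription factors, 2 were higher and 3 lower with stimulation, and 2 were higher with PGE2 under stimulation. None of these shares exceeded those over all peaks, 28.9% higher and 27.4% lower with stimulation and 20.2% higher with PGE2 under it. With PGE2 at rest 0 were called by limma, but Bach2 (0.22, adjusted p = 0.0382) and Lef1 (-0.23, adjusted p = 0.0266) were after quantile normalisation. Tox was called lower without WT PGE2 replicate 2 (-0.26, adjusted p = 0.0446). The Tcf7 promoter, of a factor of early lymphocyte development, had a log2 change with stimulation of 0.48 ± 0.12 (adjusted p = 0.00108, limma). The 2 Eomes peaks, of the T-box factor that specifies mature NK cells, had log2 changes with stimulation of -0.17 ± 0.09 at the promoter (adjusted p = 0.108) and -0.24 ± 0.08 at the intergenic peak of 3864 bp (adjusted p = 0.00807). Higher with PGE2 under stimulation were an intronic peak of the repressor gene Bach2 (0.31 ± 0.09, adjusted p = 0.00489) and an intergenic peak of Ets1 (0.35 ± 0.14, adjusted p = 0.0449). The Ets1 call was lost by edgeR (adjusted p = 0.0511) and without WT PGE2 + NK1.1 replicate 1 or 2 or WT NK1.1 replicate 1 or 2 (adjusted p between 0.0818 and 0.168). Among the 4 NK receptor peaks (Ncr1, Cd244a, Cd160, Tyrobp), 2 were lower with PGE2 at rest, 1 was higher and 2 were lower with stimulation, and none was called with PGE2 under stimulation. The stimulation call of Cd244a (-0.17, adjusted p = 0.0341) was lost without WT untreated replicate 1 or 2 or WT NK1.1 replicate 2, 3 or 4 (adjusted p between 0.0631 and 0.14). The 5 peaks of NK markers, which overlap these lists, gave 0 higher and 1 lower with PGE2 at rest, 1 and 2 with stimulation, and 0 and 1 with PGE2 under stimulation.

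Metabolic, cytokine-signalling and adhesion genes made up the remaining lists. Over all peaks 28.9% were higher and 27.4% lower with stimulation, and 20.2% higher and 20.4% lower with PGE2 under it. Lists of so few peaks cannot be told from these shares by their counts alone. The 4 glycolysis and mTOR peaks (Slc2a1, Gapdh, Slc3a2, Slc1a5) were all higher with stimulation and 2 were lower with PGE2 under stimulation, among them the promoter of the glutamine transporter gene Slc1a5 (-0.66 ± 0.08, adjusted p = 3.47e-08, limma). An intron of the glucose transporter gene Slc2a1 was higher with PGE2 at rest (0.37 ± 0.09, adjusted p = 0.00218). Of 3 housekeeping peaks, B2m and Ywhaz were not called and Gapdh was higher with stimulation and lower with PGE2 under it. Of the 3 peaks of IL-2, IL-15 and STAT5 genes, Stat5a and the kinase gene Pim1 were higher with stimulation and lower with PGE2 under it, and Bcl2l11 was not called. Of the 5 TGF-β peaks, 4 were higher and 1 lower with stimulation, 3 were lower with PGE2 under it, and 1 was higher (Tgif1) and 1 lower (Smad3) with PGE2 at rest. The 2 broad peaks of Smad3, a transducer of TGF-β signals, moved apart: the intronic one averaged 2034 ± 188 in WT NK1.1 and 1502 ± 181 in WT untreated cells, and the promoter 1241 ± 70.1 in WT NK1.1 and 1694 ± 94.7 in WT untreated cells (SD, n = 4 each). The Smad3 call at rest (-0.32, adjusted p = 0.0102) was lost without WT PGE2 replicate 4 (adjusted p = 0.0631) and without WT untreated replicate 1 (adjusted p = 0.0684), and that of Tgif1 (0.35, adjusted p = 0.017) without WT PGE2 replicate 2, WT PGE2 replicate 3 or WT untreated replicate 4 (adjusted p = 0.067, 0.0889 and 0.0665). Of the 3 migration and adhesion peaks, the integrin gene Itgb2 and Icam1 were higher with stimulation and lower with PGE2 under it, and Cxcr4 did the reverse. The single myeloid-marker peak, Itgax, was lower with PGE2 at rest and with stimulation. Gapdh and Nr4a2 each count in 2 lists.

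The windows around start sites were read for CpG content where a broad peak contained them. In 621 windows inside broad peaks the median GC content was 64.7% and the median observed-over-expected CpG ratio 0.797, and in 11719 windows inside other peaks 62.0% and 0.789. Both strands were searched for TGACG, a core of the cyclic AMP response element, and for TGANTCA, the AP-1 motif, whose matches may overlap. The core occurred in 27.2% of the windows in broad peaks, 33.9% of those in other peaks and 20.8% of all 32851 windows, and the AP-1 motif in 4.19%, 4.78% and 7.81%. With PGE2 at rest, windows in the lowered broad peaks had a median ratio of 0.423 and those in broad peaks not called 0.816. The 19 windows in raised broad peaks had 0.786. In other peaks the medians were 0.629 for lowered, 0.520 for raised and 0.794 for not called peaks. A ratio under 0.6, a threshold chosen after these values were seen, held for 88 broad peaks with a start site, such as Ccl3, Ncr1 and Slfn2, and of these 20 (22.7%) were lower and 2 higher with PGE2 at rest. At or above 0.6, as at Egr2, Tgif2 and Icam1, 12 of 321 (3.74%) were lower and 8 higher. Among other peaks with a start site the lower shares were 4.52% of 2057 under the threshold and 1.67% of 6842 at or above it. Their higher shares split the same way, at 4.76% and 1.18%. Under stimulation the split by CpG was smaller for the lowered peaks, with 28 of 88 (31.8%) lower with PGE2 under the threshold and 98 of 321 (30.5%) at or above it, while 16 of the 88 (18.2%) and 30 of the 321 (9.35%) were higher. No test was made on these shares, and broad and other peaks differ in depth as given above.

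**Figure D5:**
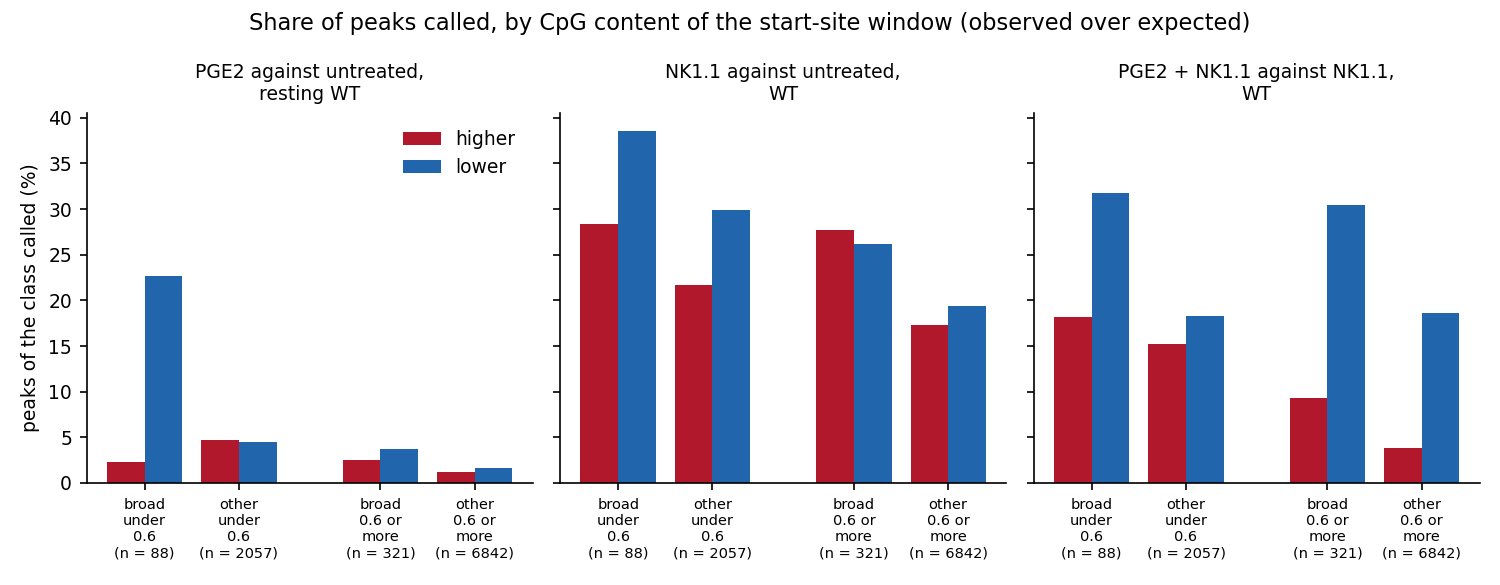
Share of peaks with a start site that were called (y axis, %), higher in red and lower in blue, for broad and other peaks with an observed-over-expected CpG ratio under 0.6 or of 0.6 or more (x axis), in the same 3 comparisons. The tallest bar of the resting PGE2 panel is the 22.7% of lower calls among 88 broad CpG-poor peaks, and in the right panel the lower calls of both broad classes stand near 31.8% and 30.5%.

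Narrower peaks assigned to the same genes were counted beside the broad ones. The 205 broad peaks lowered by PGE2 under stimulation belonged to 200 genes, 154 of which also had narrower peaks, and of these 920 narrower peaks 368 (40.0%) were lower and 148 (16.1%) higher, against 20.4% and 20.2% of all peaks. For the 58 broad peaks lowered at rest, 46 of 294 narrower peaks (15.6%) of the same genes were lower and 28 (9.52%) higher, against 4.03% and 10.9% of all peaks. For the 37 raised at rest, 30 of 208 narrower peaks (14.4%) were higher and 9 (4.33%) lower, near the 10.9% and 4.03% of all peaks. These shares have no test.

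The broad peaks held 4.25% of the summed peak width and a median of 7.02% of the reads in peaks of a library. Of that, 3 peaks with far higher counts than any other broad peak took a large part: an intergenic peak assigned to Col19a1 (4499 bp), one assigned to Gm5458 (3847 bp) and Gm42418 (5682 bp, the widest), a locus known to overlap ribosomal RNA sequence. The Col19a1 peak ran between 30136 and 291425 normalised counts and was highest in resting libraries of replicates 3 and 4. Without these 3 peaks, an alternative chosen after the data were seen, the share was 5.68% to 5.84% in WT PGE2 + NK1.1 (n = 4) and 6.10% to 6.33% in WT NK1.1 cells (n = 4), without overlap. At rest it was 5.69% to 5.85% in WT PGE2 (n = 3) and 5.84% to 6.26% in WT untreated cells (n = 4). In resting KO cells it was 5.71% to 6.12% in KO PGE2 (n = 4) and 5.74% to 5.94% in KO untreated cells (n = 3). KO untreated cells, which had no PGE2, thus overlapped both resting WT groups. Under stimulation it was 5.86% to 6.20% in KO PGE2 + NK1.1 and 5.87% to 6.29% in KO NK1.1 cells. No test was made on this share. The other widest peaks were Apobec3 (4683 bp), Ucp2 (4510 bp), Neat1 (4305 bp), Zfp827 (4293 bp), H2-DMa (4259 bp) and Anp32a (4258 bp). Among these the zinc finger gene Zfp827 was higher with stimulation (log2 change 1.11 ± 0.09, adjusted p = 1.34e-13, limma) and lower with PGE2 under it (-0.91 ± 0.09, adjusted p = 1.48e-10). Just inside the width threshold lay promoter peaks of Abca1 (2501 bp), Cbfa2t3 (2501 bp) and Larp1 (2503 bp), with log2 changes for PGE2 under stimulation of 0.37, 0.11 and -0.49. Just outside lay peaks of Trp53rkb (2498 bp), Pcgf5 (2498 bp) and Elmsan1 (2497 bp), with 0.86, -0.04 and 0.14.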

How the data were processed

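ATAC-seq reads of 30 libraries in 8 groups form 1 table of peaks on mm10. The submitters' processing notes name Trimmomatic 0.39 (a read trimmer), Bowtie2 2.4.1 (an aligner), MACS2 2.2.7.1 (a peak caller) and DESeq2. The deposited values are a signal: the authors divided the read counts of each peak by a size factor of the library, and 100% of values were whole reads within 0.05 of a read, with 1 read worth 0.6628 to 1.6644. Peaks of at least 2500 bp were selected. Changes were tested with limma 3.58.1 (R 4.3.3) on log2(normalised count + 1) over all 30 libraries with 1 mean per group, for the 38525 peaks with a mean of at least 10, with Benjamini-Hochberg adjustment over all of them and a threshold of 0.05. Fold changes are on that scale and understate those of low peaks. Differences between genotypes are interaction terms, WT minus KO. edgeR 4.0.16 and DESeq2 1.42.0 were run on the recovered reads as alternatives. On these reads edgeR called 36 broad peaks higher and 60 lower for PGE2 at rest, 206 and 178 for stimulation in WT cells and 87 and 207 for PGE2 under stimulation. The fit was checked on simulated data.

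Members and gene lists were chosen with earlier results of these data known. Named were the 8 widest peaks, the 5 with most counts per kb, the 8 called peaks with the largest change in each direction of a comparison (the higher group averaging 50 or more, no overlap between groups, 1 peak per gene), up to 4 peaks per gene list by smallest p, all peaks of Ptger2 and a set of effector genes, and 3 peaks on each side of the width threshold. The printed promoters, Jun, Ucp2's second peak and the genes given only by name were chosen after their values were seen. Of 633 genes of broad peaks with an identifier, 631 were found in RefSeq. Classes and gene assignments are those of the deposited table. Libraries with the same replicate number were not treated as pairs. Left-out libraries, other scalings and other width thresholds were tried as alternatives.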

Additional observations from a re-analysis of the deposited data

Results flagged for a closer look

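In 161 checks of groups of 4 libraries, 2 groups held a library far from the other 3. The checks covered the named broad peaks and the share of reads in broad peaks. A peak named for several comparisons was checked more than once in the same group. The 2 flags therefore cannot be set against the roughly 1 in 20 that chance flags. The Gm5458 peak held 58490 normalised counts in KO PGE2 + NK1.1 replicate 2, while the other 3 libraries of that group held 38610 to 41980. The Zfp827 peak held 1146 in WT PGE2 + NK1.1 replicate 1, while the other 3 held 1077 to 1082.

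The effect of PGE2 differed between the genotypes in 51 cases among the named peaks by the interaction term of limma, given as WT minus KO on the log2 scale. Many of these peaks were named for their changes in the same WT libraries, so the count does not measure how common such differences are. Over all peaks the difference was called at 6.18% at rest and 20% under stimulation. Ccl3, Serpinb9, Thbd and the Ucp2 peak of 4510 bp differed both at rest and under stimulation. Under stimulation the difference was -3.73 at Ccl1, -2.32 at Xcl1, -2.19 at Tagap, -1.84 at Ccl4, -1.51 at Ccl3, -1.38 at Tgif2, -1.23 at Tnfrsf9 and -1.13 at Ccl9. It was -1.05 at Prf1, -1.03 at Icam1, -0.99 at Irf2bp1, -0.79 at Egr2, -0.74 at Serpinb9, -0.70 at Nr4a2, -0.67 at Ucp2, -0.65 at Zfp827, -0.62 at Adora2a and -0.60 at Slc1a5. Smaller differences were -0.56 at Nfkbia and at Skil, -0.55 at Pim1 and at Ptger2, -0.45 at Atf3 and at Chst2, -0.43 at the Smad3 peak of 3282 bp, -0.41 at Stat5a, and -0.30 at Gapdh and at Itgb2. In the other direction it was 0.94 at 1700030F04Rik, 0.85 at Arid5b, 0.74 at Gm16534 and at Ttll5, 0.73 at Wwp2, 0.65 at Slfn2, 0.63 at P2ry10, 0.62 at H2afy, 0.59 at Cxcr4, 0.57 at Thbd and 0.55 at Ccm2. Ptger2 is itself deleted in the KO, where its peak held 83.6 to 247 counts against 560 to 1109 in WT libraries. Its difference therefore does not compare intact peaks in both genotypes.

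At rest the difference was -1.13 at Ccl3, -1.04 at Klra10, -0.91 at Ucp2, -0.86 at Asb5, -0.61 at Ms4a4b and at Ncr1, -0.45 at Cd244a and -0.36 at Itgax. Positive differences at rest were 1.27 at Dip2b, 0.84 at Serpinb9, 0.77 at Thbd and 0.48 at Rbks.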

How the results depend on the processing

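Named peaks were checked under some of the alternatives: DESeq2, edgeR, a pseudocount of 10, quantile normalisation, the replicate block and left-out libraries. In these, no named change called in either fit reversed its direction, and changes called in neither fit were not examined for it. Of 207 pairs of named peak and comparison, the side of the threshold held for 204 by DESeq2 and 201 by edgeR. It held for 205 with a pseudocount of 10, 188 with quantile normalisation and 196 with the replicate block. Leaving out a library kept it in 1495 fits, with 78 calls lost and 8 gained. Requiring an absolute log2 change of at least 1 left these higher and lower shares of the 655 broad peaks: 0.153% and 0.153% for PGE2 at rest, 5.04% and 1.37% for stimulation in WT, 5.65% and 1.07% in KO, 0.153% and 2.44% for PGE2 under stimulation, 1.22% and 0% for stimulation of PGE2-treated WT cells, 0% and 0.153% for KO against WT, and 0.153% and 0.305% at rest and 0% and 2.14% under stimulation for the genotype differences. Quantile normalisation, after which the median log2 change of all peaks was -0.115 for stimulation in WT and -0.134 in KO cells, against -0.021 and -0.028 without it, gave 16.3% higher for stimulation of PGE2-treated cells, 0% and 0.611% for KO against WT and 9.77% higher for the genotype difference under stimulation. DESeq2 gave 0.305% and 2.75% for KO against WT and 4.58% lower for the genotype difference at rest. With the replicate block, the shares were 13.9% lower for stimulation of PGE2-treated cells, 0.305% and 3.05% for KO against WT and 3.21% higher for the genotype difference at rest; it moved no other count by over 1.5 times. With the block the higher calls were 45.8% of the called broad peaks for stimulation of PGE2-treated cells, against 60.3% without it, and 43.8% for the genotype difference at rest, against 20.8%. Among calls gained with it were Bach2 (0.25, adjusted p = 0.0041, limma) and Lef1 (-0.19, adjusted p = 0.0439) with PGE2 at rest and the Eomes promoter (-0.17, adjusted p = 0.0141) with stimulation. The labels do not say whether the same number marks a pair, and the main fit held no block for it. Of 99 same-number pairs, 39 had a correlation of deviations over 0.1 (median 0.0650). The median of the 294 pairs with different numbers was -0.0230. Of 30 libraries, 26 correlated best with their own number, a hint from the data that libraries of a number share some variation. WT PGE2 and KO untreated hold no replicate 1, so their comparisons with groups that hold it are not balanced for the number. For PGE2 at rest in WT cells the block gave 55 higher and 75 lower broad peaks, against 37 and 58 without it. At 2000 bp and wider, 5.75% were lower with PGE2 at rest, 0.333% and 0.792% differed for KO against WT, and 1.38% and 1.88% for the genotype difference at rest. At 3000 bp and wider, 0% were higher for KO against WT and 3.78% for the genotype difference under stimulation. The share of reads in peaks was 19.1% at 2000 bp, 3.09% at 3000 bp and 5.89% without the 3 highest peaks. Leaving out 1 library gave 3.97% to 5.34% higher and 4.58% to 8.24% lower for PGE2 at rest, 28.7% to 31.5% and 24.6% to 27.2% for stimulation in WT, 29.6% to 32.8% and 19.1% to 24.6% in KO, 10.8% to 13.3% and 28.7% to 30.2% for PGE2 under stimulation, 7.33% to 10.4% and 3.51% to 7.02% for stimulation of PGE2-treated cells, 0% to 0.611% and 0.305% to 2.6% for KO against WT, 0.458% to 1.37% and 1.83% to 3.51% for the genotype difference at rest, and 4.27% to 6.26% and 15.7% to 20% under stimulation. The causes of these shifts were not tested. Replicate spread sets what could be called: the median standard error of a log2 change with PGE2 at rest was 0.092 for broad peaks and 0.156 for other peaks.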
